A study of Homo sapiens with 8 samples.

Results

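The 4 HOX gene clusters, HOXA, HOXB, HOXC and HOXD, were read in RNA sequencing of 2 human uveal melanoma cell lines, 92.1 and MEL290. Members were all gene symbols made of HOX, a cluster letter and a number, 39 of the 19952 symbols listed for each library. The value is the FPKM, a fragment number scaled by transcript length and by all mapped fragments of the library, so levels of different genes can be set side by side. 92.1 cells carried a short hairpin RNA against APOBEC3B (shA3B, in the lentiviral vector pGIPZ) or a control (shCtrl), which the study's methods describe as an empty vector. MEL290 cells overexpressed APOBEC3B from the vector pHAGE-puro (A3B OE) or were a negative control (NC), and cells were selected with puromycin. Each of the 4 groups had 2 libraries, labelled replicates 1 and 2. No source used here says that these were separate cultures, so p-values measure the spread between libraries, which may be technical. The comparisons address which HOX genes each line expressed and whether a change in APOBEC3B (A3B), a cytidine deaminase, went with a change in their level.

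HOX genes encode homeodomain transcription factors that give cells their position along the body axis. Within a cluster the genes lie in the order in which they are used from head to tail, and genes of the same number in different clusters are paralogs that arose by duplication of 1 ancestral cluster. MLL-type histone methyltransferases keep them on, Polycomb complexes keep them silent, retinoic acid induces the genes at the anterior end, and the TALE proteins of the PBX, MEIS and PKNOX families bind DNA together with HOX proteins. Melanocytes of the choroid come from cranial neural crest, and the crest cells of the frontal part of the head form without HOX expression.

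In GRCh38 with GENCODE release 44, HOXA lies on the minus strand of chromosome 7, with the start of HOXA13 at 27200091. HOXB reaches from HOXB1 at 48528526 to HOXB13 at 48728750 on the minus strand of chromosome 17. HOXC lies on the plus strand of chromosome 12, from HOXC13 at 53938831 to HOXC4 at 54056030, and HOXD on the plus strand of chromosome 2, from HOXD13 at 176092721 to HOXD1 at 176190907. Transcripts within the clusters overlap. In the annotation 22 of the 39 members overlap another HOX gene on the same strand, such as HOXB7 with HOXB8 and HOXB9, HOXA3 with HOXA4, HOXA5 and HOXA6, HOXB3 with HOXB4, HOXB5 and HOXB6, HOXC6 with HOXC8 and HOXC9, and HOXD3 with HOXD4. An antisense gene overlaps 25 members, such as HAGLR at HOXD1. The division of shared fragments between these genes and the strand of the libraries are not given in the sources used here, so the values of these members are uncertain to that extent.

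RefSeq promoter windows of GRCh38.p14, the 250 bases before an annotated start, were held for 20 of the 39 members. The 26 distinct windows had a median of 19.5 CpG dinucleotides, against 11 over 34943 windows of all genes, and between 0 and 40 in single windows. Below are those of HOXD1, HOXD4 and HOXD13, which were among the 5 HOX genes with the highest FPKM in 92.1, and of HOXA9, which was listed at 0 in every library. They are printed 5′ to 3′ along the gene, with each CpG in capitals. The windows are chr2:176188418-176188667 (plus strand) for HOXD1, chr2:176151300-176151549 (plus) for HOXD4, chr2:176092471-176092720 (plus) for HOXD13 and chr7:27165538-27165787 (minus) for HOXA9.
HOXD1: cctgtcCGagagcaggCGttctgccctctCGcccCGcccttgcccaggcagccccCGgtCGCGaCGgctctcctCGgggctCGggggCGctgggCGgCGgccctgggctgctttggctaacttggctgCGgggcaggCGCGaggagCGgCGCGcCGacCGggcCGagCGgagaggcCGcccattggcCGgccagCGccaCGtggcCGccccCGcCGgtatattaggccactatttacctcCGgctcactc
HOXD4: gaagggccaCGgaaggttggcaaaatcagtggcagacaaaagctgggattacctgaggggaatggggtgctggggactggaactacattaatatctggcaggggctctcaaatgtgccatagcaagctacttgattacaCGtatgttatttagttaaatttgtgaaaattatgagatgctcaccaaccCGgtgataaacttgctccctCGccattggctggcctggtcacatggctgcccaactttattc
HOXD13: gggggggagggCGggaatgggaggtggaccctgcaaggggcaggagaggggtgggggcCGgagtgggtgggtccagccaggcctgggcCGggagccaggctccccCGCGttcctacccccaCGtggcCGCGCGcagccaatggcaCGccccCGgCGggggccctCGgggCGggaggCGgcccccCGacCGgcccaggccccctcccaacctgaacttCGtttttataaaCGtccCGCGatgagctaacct
HOXA9: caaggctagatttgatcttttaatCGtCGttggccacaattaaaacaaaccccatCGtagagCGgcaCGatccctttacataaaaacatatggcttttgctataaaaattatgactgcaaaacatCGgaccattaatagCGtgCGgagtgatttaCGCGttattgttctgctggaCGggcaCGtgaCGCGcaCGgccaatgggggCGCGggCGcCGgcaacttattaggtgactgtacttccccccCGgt
The window of HOXD1, the HOX gene with the highest level, held 31 CpG, that of HOXD4 held 4, that of HOXD13 held 21 and that of HOXA9 held 20. CpG number thus did not order these 4 genes by level. The TATA box letters TATAAA, searched on both strands, stood in 5 of the 26 windows (19.2%; HOXA9, HOXD13, both windows of HOXA10 and 1 window of HOXA3) and in 10.8% of all windows. TGATNNAT, the core of sites bound by PBX with a HOX protein, stood on either strand in 3 of the 26 (11.5%; HOXA2, HOXB1 and HOXD11) and in 6.49% of all windows. Neither motif contains the other, and a match in letters is not evidence of binding.

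A3B itself moved as the labels say. It was at 35.9 and 32.3 FPKM with shCtrl and at 1.98 and 2.37 with shA3B, a log2 fold change of -3.47 (SE 0.15, adjusted p = 2.4e-06). In MEL290 it was at 2.67 and 2.19 with NC and at 28.4 and 27.5 with A3B OE, a log2 fold change of 3.08 (SE 0.12, adjusted p = 0.00078). The files give no counts, and depth was estimated only loosely from the smallest FPKM values, at 25700000 to 32400000 fragments in 92.1 and 17800000 to 28200000 in MEL290. All 13 melanocyte markers examined were at 1 FPKM or more in all 92.1 libraries, with summed levels of 7492.5 to 9175. In MEL290 these summed to 33.2 to 39.5, MITF and GPR143 alone were at 1 FPKM or more in all 4 libraries, and TYR, OCA2 and TRPM1 were listed at 0, so melanocyte markers go against the label of uveal melanoma there. Epithelial markers summed to 1679.7 to 2584 FPKM in MEL290 and 3.75 to 5.67 in 92.1, and in MEL290 KRT8 (907 to 1295) and KRT18 (770.2 to 1298) gave nearly all of it, while EPCAM was at most 0.0704, KRT5 was listed at 0 and CDH1 was at 0.180 to 2.14. Neural crest markers summed to 1.01 to 2.50 in MEL290 and 253 to 338 in 92.1. Fibroblast markers summed to 44.1 to 60.9 in MEL290 and 6.23 to 8.59 in 92.1, with COL1A1 and PDGFRB as the main part in MEL290. LUM went the other way, at 3.58 to 5.03 in 92.1 and at most 0.126 in MEL290, as did PDGFRA (0.418 to 0.988 and at most 0.130), and DCN, COL1A2 and COL3A1 were listed at 0 in 92.1 and were at most 0.260 in MEL290. Blood cell markers summed to 26.4 to 32.0 in MEL290 and 14.7 to 35.3 in 92.1, of which CD68 gave most, and endothelial markers to at most 0.193 in any library. Their part in the HOX levels was not tested.

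92.1 cells expressed a broad set of HOX genes, and MEL290 cells almost none. In 92.1, 24 of the 39 members were at 1 FPKM or more in all 4 libraries, and 5 of these at 10 FPKM or more. HOXA7 and HOXC4 reached 1 FPKM in some libraries, 9 members stayed under 1 FPKM in all, and HOXA9, HOXA10, HOXB1 and HOXC12 were listed at 0. All 4 clusters took part, with 5 of 11 HOXA genes, 8 of 10 HOXB genes, 5 of 9 HOXC genes and 6 of 9 HOXD genes at 1 FPKM or more throughout. Summed over members, HOXD reached 85.6 to 109 FPKM per library, or 43.9% to 48.9% of all HOX FPKM. HOXB followed with 54.8 to 58.5, HOXC with 30.0 to 32.4 and HOXA with 21.6 to 23.4, and these ranges do not overlap. The lead of HOXD rested on HOXD1, at 39.3 to 59.2 FPKM, without which HOXD would lie below HOXB in each library. The whole family made up 0.0286% to 0.0339% of the summed FPKM of a 92.1 library. In MEL290, 4 of the 156 values were above 0, all others were listed at 0, and the HOX sum of a library was at most 0.137 FPKM.

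**Figure D1:**
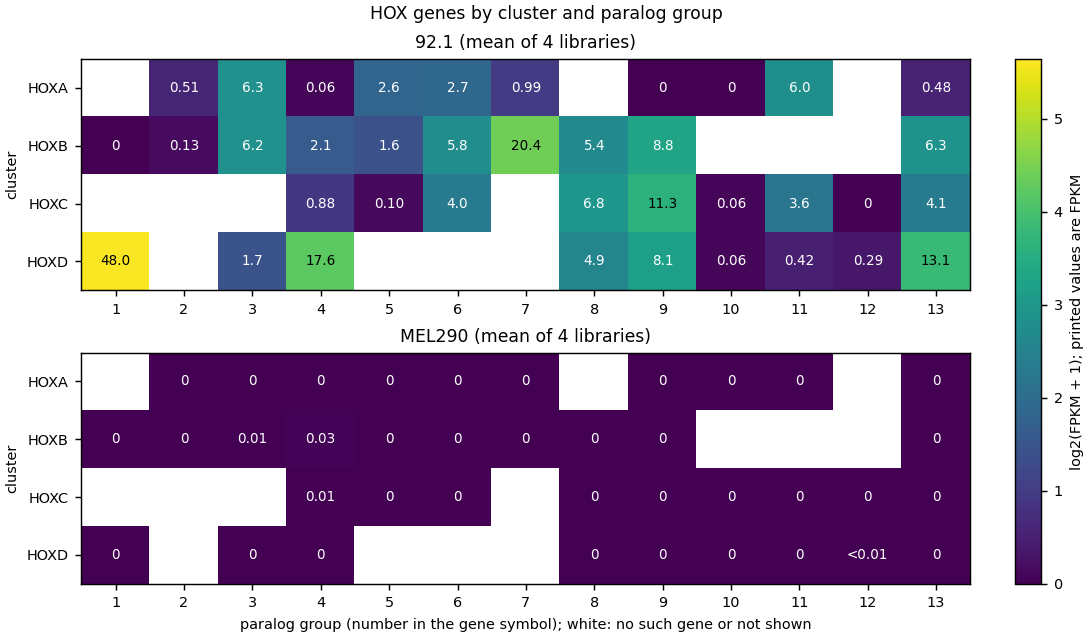
Mean FPKM of HOX genes over the 4 libraries of 92.1 (upper grid) and the 4 of MEL290 (lower grid), with clusters in rows and paralog groups in columns. Colour shows log2(FPKM + 1), the printed values are FPKM, and white cells are positions with no gene or not shown. In 92.1 HOXD1 stands highest at 48.0 and paralog groups 2, 10 and 12 stay under 1 FPKM, while the MEL290 grid is at or near 0 throughout.

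Among the anterior genes, paralog groups 1 to 3, HOXD1 led the family. HOXD1, a group 1 gene expressed in sensory neurons of the embryo, was at 41.6 and 59.2 FPKM with shCtrl and at 39.3 and 51.8 with shA3B. The replicate 2 library was the higher one in both groups, and the groups overlapped. Its paralog HOXB1, a gene of the facial nerve segment, was listed at 0. HOXA3, needed for the thymus and parathyroid, was at 7.09 and 5.75 with shCtrl and 6.19 and 6.03 with shA3B. Very close to it, HOXB3 was at 6.89 and 5.81 with shCtrl and 6.12 and 6.09 with shA3B. For both genes the shA3B values lay between the shCtrl values. HOXD3, the third member of that paralog group, was at 1.70 and 2.03 with shCtrl and at 1.72 and 1.48 with shA3B. HOXA2, which patterns the second pharyngeal arch, and HOXB2 stayed low, with ranges of 0.320 to 0.781 and 0 to 0.381 FPKM.

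In the middle of the clusters, groups 4 to 8, HOXB7 and HOXD4 were the highest. HOXB7, described in melanoma cells as an activator of the growth factor gene FGF2, was at 20.0 and 21.3 FPKM with shCtrl and at 19.2 and 21.1 with shA3B. HOXD4, a gene of the hindbrain and neck, was at 16.1 and 18.9 with shCtrl and at 17.7 and 17.8 with shA3B. Both were steady across the line, with an SD over the 4 libraries of 1.00 and 1.16 FPKM. The other group 4 genes were lower, with HOXB4, a gene that expands blood stem cells, at 2.28 and 1.998 with shCtrl and 1.953 and 1.993 with shA3B. HOXC4 ranged from 0.665 to 1.03 FPKM, passing 1 in 1 library, and HOXA4 reached at most 0.134.

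Group 5 was low in each cluster. HOXA5, known from lung development, was at 2.41 and 2.76 FPKM with shCtrl and at 2.41 and 2.73 with shA3B. HOXB5, which acts in the crest that forms the gut nervous system, was at 1.37 and 1.89 with shCtrl and at 1.46 and 1.87 with shA3B, and HOXC5 reached at most 0.157. In group 6, HOXB6 was at 6.04 and 6.21 with shCtrl and at 5.46 and 5.50 with shA3B, so that both shA3B values were the lower ones. HOXC6 was at 3.53 and 4.72 with shCtrl and at 4.33 and 3.61 with shA3B. HOXA6 was at 1.76 and 3.24 with shCtrl and at 2.14 and 3.56 with shA3B, higher in replicate 2 of both groups. HOXA7 went the other way, at 1.26 and 0.415 with shCtrl and 1.60 and 0.686 with shA3B, higher in replicate 1 of both. Group 8 was expressed from all 3 of its clusters. HOXC8, which acts in limb motor neurons, was at 6.26 and 6.67 with shCtrl and at 6.80 and 7.64 with shA3B, both higher. HOXD8 was at 4.57 and 5.22 with shCtrl and at 4.72 and 5.25 with shA3B. HOXB8, a gene able to hold myeloid progenitors undifferentiated, was at 6.10 and 4.15 with shCtrl and at 5.29 and 6.11 with shA3B, with overlapping groups.

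The posterior genes, groups 9 to 13, were either clearly on or nearly off. Group 9 acts in the trunk and at the level of the limbs. HOXC9, which sets thoracic motor neuron identity, was at 12.0 and 11.8 FPKM with shCtrl and at 10.8 and 10.7 with shA3B, both shA3B values below both shCtrl values. HOXB9 was at 7.94 and 10.2 with shCtrl and at 8.54 and 8.56 with shA3B, the shA3B values lying between the others. HOXD9 was at 8.45 and 9.03 with shCtrl and at 7.90 and 7.01 with shA3B, again without overlap. In contrast HOXA9, a gene best known from leukaemia, was listed at 0. Of group 10, HOXA10 was listed at 0, HOXC10 reached at most 0.115 and HOXD10 at most 0.111 FPKM. HOXA11, which forms the forearm and the uterus, was at 6.26 and 7.10 with shCtrl and at 5.42 and 5.37 with shA3B, with no overlap. Its paralog HOXC11 was at 3.63 and 3.74 with shCtrl and at 3.67 and 3.54 with shA3B, the smallest spread of the family among genes over 1 FPKM, with an SD of 0.0832. HOXD11 ranged from 0.347 to 0.570, HOXD12 from 0.198 to 0.453, and HOXC12 was listed at 0.

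At the last position of the clusters the genes were on in 3 of 4 clusters. HOXD13, the gene of digit formation, was at 12.7 and 13.9 FPKM with shCtrl and at 14.2 and 11.6 with shA3B. HOXB13, a prostate lineage gene, was at 6.23 and 6.63 with shCtrl and at 6.82 and 5.68 with shA3B. HOXC13, which drives hair and nail keratins, was at 3.50 and 4.46 with shCtrl and at 4.38 and 4.02 with shA3B. In all 3 genes the groups overlapped. HOXA13 stayed between 0.407 and 0.561 in the 4 libraries.

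The order of levels in 92.1 was clear at the top and blurred below. HOXD1 (48.0 ± 9.27 FPKM, SD over the 4 libraries), HOXB7 (20.4 ± 1.00) and HOXD4 (17.6 ± 1.16) each stood above the next gene in every library. HOXD13 (13.1 ± 1.19) and HOXC9 (11.3 ± 0.657) overlapped with each other and lay above all others. From HOXB9 (8.80 ± 0.947) down through HOXD9, HOXC8, HOXB13, HOXA3, HOXB3, HOXA11, HOXB6 and HOXB8 to HOXD8 (4.94 ± 0.347) each gene overlapped with its neighbour in the order. HOXC13, HOXC6 and HOXC11 formed a further overlapping run, then one with HOXA6 and HOXA5, and from HOXB4 downward every gene overlapped with the next.

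Levels did not follow position along a cluster smoothly. HOXD9 at a mean of 8.10 FPKM stood next to HOXD10 at 0.0606, and HOXD12 at 0.291 next to HOXD13 at 13.1. Between HOXD1 and HOXD4, HOXD3 was at 1.73. Along HOXC the means ran from 11.3 at HOXC9 to 0.0597 at HOXC10, 3.64 at HOXC11, 0 at HOXC12 and 4.09 at HOXC13. In HOXA, HOXA11 at 6.04 followed HOXA9 and HOXA10, both listed at 0. None of these pairs of neighbours overlapped over the 4 libraries. FPKM is divided by the annotated transcript length, and for genes that overlap in the annotation a step may depend on how shared fragments were assigned. Of the genes in these steps, all but HOXC12, HOXD12 and HOXD13 overlap another HOX gene or an antisense gene, such as HOXA9 with HOXA10.

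**Figure D2:**
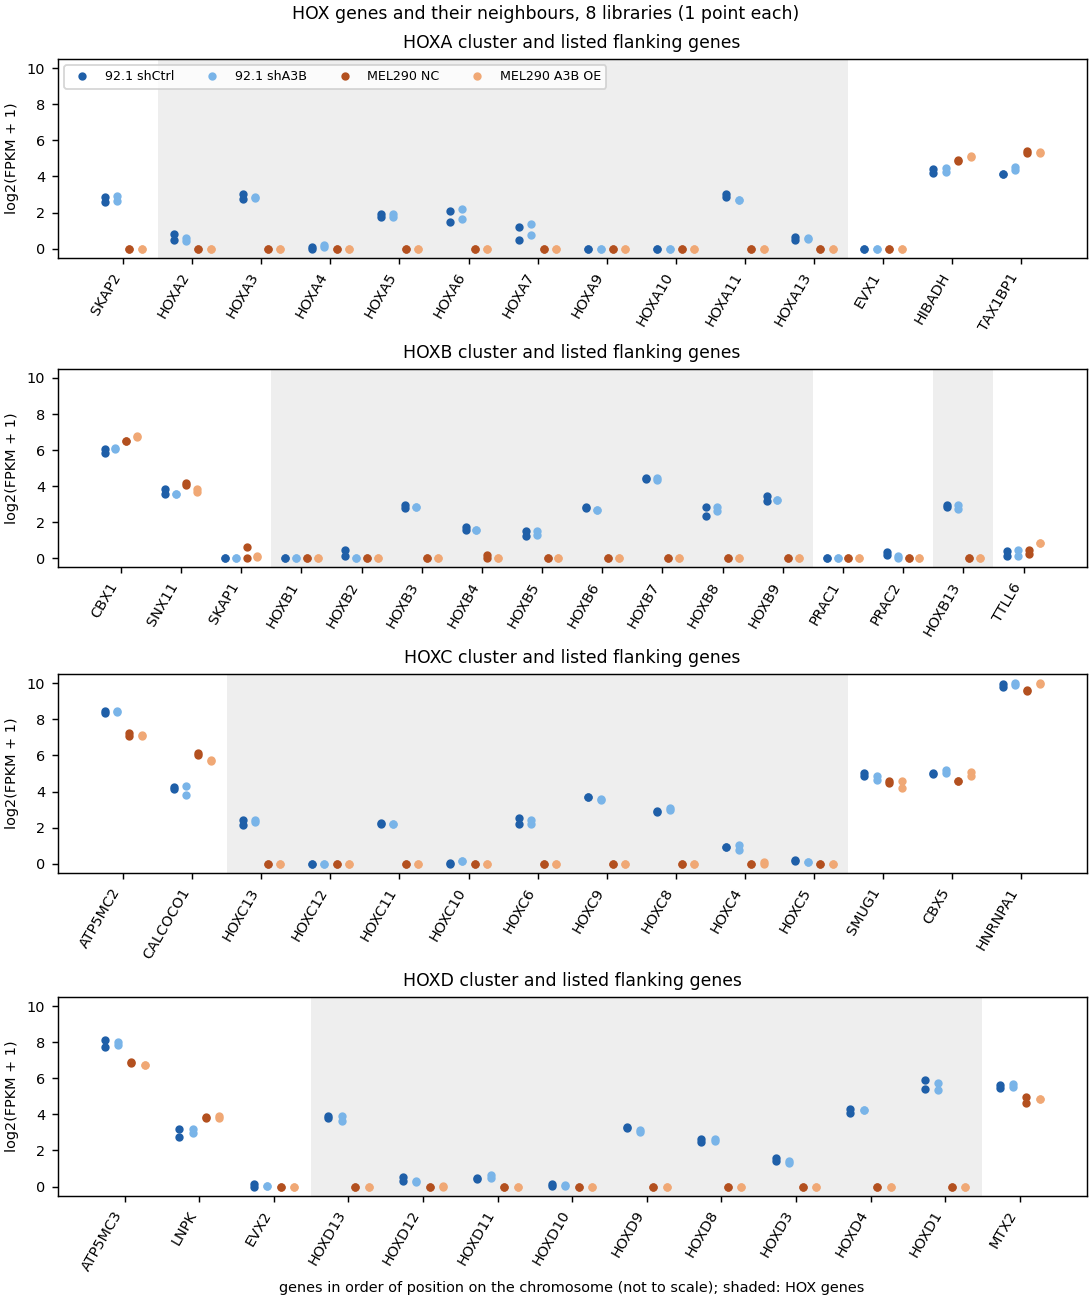
log2(FPKM + 1) of HOX genes (shaded) and of listed genes on either side, in order of start position and not to scale, with 1 point per library and colours for the 4 groups. The 92.1 points of HOXD1 and HOXB7 stand high, those of HOXA9, HOXA10, HOXB1 and HOXC12 lie at 0, and the MEL290 points lie at or near 0 over every HOX gene shown while most flanking genes are on in both lines.

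MEL290 showed HOX values above 0 in 4 places, each in 1 library. HOXB3 was at 0.0276 FPKM in NC replicate 1, HOXB4 at 0.137 in NC replicate 2, and HOXC4 at 0.0489 and HOXD12 at 0.0152 in A3B OE replicate 1. The other 35 members were listed at 0 in all 4 libraries. A value of exactly 0 in such files can be a failed estimate, and whether this holds for the HOX genes was not tested. In all 8 libraries 25 genes used by every cell, such as polymerase and proteasome subunits, were above 0, the lowest at 7.59 in 92.1 and 8.45 in MEL290. These genes are well expressed, so their values do not bear on zeros at HOX genes. In bulk RNA, fewer cells that express a gene and less RNA per cell cannot be told apart. Of all 11149 genes at 1 FPKM or more in every 92.1 library, 226 (2.03%) were listed at 0 in every MEL290 library. Among HOX genes this held for 22 of 24 (91.7%), the exceptions being HOXB3 and HOXB4 with the traces above. In the other direction, no HOX gene was at 1 FPKM in MEL290, so none could be on in MEL290 and off in 92.1.

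Most tested genes around the clusters differed from the HOX genes in this respect, but SKAP2 did not. SKAP2, an adaptor gene beside the HOXA cluster, was at 6.26 and 4.95 FPKM with shCtrl and 6.54 and 5.26 with shA3B and was listed at 0 in all MEL290 libraries. The 12 other flanking genes that passed the filter were on in both lines. On the far side of HOXA13, HIBADH and TAX1BP1 were higher in NC than in shCtrl, by 0.59 and 1.22 on the log2 scale (adjusted p = 0.0048 and 0.00015). CBX1 and SNX11 beside HOXB were also higher in NC, by 0.54 and 0.41 (adjusted p = 0.0040 and 0.039). Around HOXC, CALCOCO1 was higher by 1.88 (adjusted p = 3.4e-05), whereas ATP5MC2, SMUG1, CBX5 and HNRNPA1 differed by -1.26, -0.40, -0.41 and -0.27 (adjusted p = 8.1e-05, 0.016, 0.0095 and 0.017). Beside HOXD, LNPK was higher by 0.84 (adjusted p = 0.0071) and MTX2 and ATP5MC3 differed by -0.72 and -1.07 (adjusted p = 0.0059 and 0.00071). SKAP2 was lower in NC, but it passed the filter through shCtrl alone, so it had to differ and is no support in itself. Thus 6 of 13 tested flanking genes were higher in NC and 7, SKAP2 among them, lower. Of all 12352 genes tested, 73% were called in either direction. Some of these calls rested on single libraries: SNX11 lost it without shCtrl replicate 1 (adjusted p = 0.10) or either NC library (0.15 and 0.062), CBX5 and SMUG1 without NC replicate 2 (0.061 and 0.087), and HNRNPA1 without either NC library (0.068 and 0.13) or the trend (0.066), and SNX11 also with no filter (0.067). With A3B OE and shA3B in place of the controls, HNRNPA1 turned to 0.0501 (adjusted p = 0.67), and the calls of CBX5 (-0.15, adjusted p = 0.30), SNX11 (0.18, 0.21) and SMUG1 (-0.37, 0.076) were lost. EVX1 and PRAC1, 2 further genes next to the clusters, were listed at 0 in all 8 libraries, and SKAP1, PRAC2, TTLL6 and EVX2 stayed under 1 FPKM. PRAC2 and EVX2 reached at most 0.294 and 0.0999 in 92.1 and were listed at 0 in all MEL290 libraries.

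Depletion of A3B in 92.1 did not bring a called change in any HOX gene. Of the 39 members, 25 passed the filter of 1 FPKM in at least 2 of the 4 libraries, and 0 were called by limma, where 1 of 11605 genes (0.00862%), A3B itself, was called, 0.00862% lower and 0% higher. At an unadjusted p under 0.05 there were 0 HOX genes and 336 genes in all. The fitted log2 fold changes of shA3B against shCtrl ran from -0.26 to 0.23 with a median of -0.04, against 0.00 over all genes, and 9 were above 0 and 16 below. This split moved to 11 and 14 with upper quartile scaling and to 7 and 18 with quantile normalization. The most negative value belonged to HOXA11 (-0.26, SE 0.16, 95% interval -0.61 to 0.09, adjusted p = 0.999), followed by HOXD9 (-0.20, SE 0.15, interval -0.54 to 0.13). The most positive ones belonged to HOXA7 (0.23, SE 0.28, interval -0.39 to 0.85) and HOXA6 (0.15, SE 0.25, interval -0.40 to 0.70), the genes that also varied most between replicates.

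Among the highest genes, the change was -0.13 for HOXD1 (SE 0.19, interval -0.55 to 0.28), -0.04 for HOXB7 (SE 0.14, interval -0.34 to 0.27), 0.03 for HOXD4 (SE 0.14, interval -0.29 to 0.35), -0.05 for HOXD13 (interval -0.39 to 0.29) and -0.13 for HOXC9 (interval -0.45 to 0.18). In HOXA11, HOXB4, HOXB6, HOXC9 and HOXD9 both shA3B libraries lay below both shCtrl libraries, and in HOXC8 above them. Over all tested members the 7 of 25 genes without overlap stand beside 28.6% of all 11605 genes, 13.3% lower and 15.3% higher, and 2 against 2 libraries cannot give an exact permutation p below 0.33. All 25 intervals lay between -0.61 and 0.85, inside a change of 1 on the log2 scale in either direction. A shift smaller than these intervals was not detectable with these libraries. In simulated data with 200 changed genes, 0% of shifts of 0.5 were called in this comparison. Summed over the family, HOX FPKM was 209 ± 20.2 with shCtrl and 200 ± 8.31 with shA3B (SD, n = 2), with overlapping libraries.

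**Figure D3:**
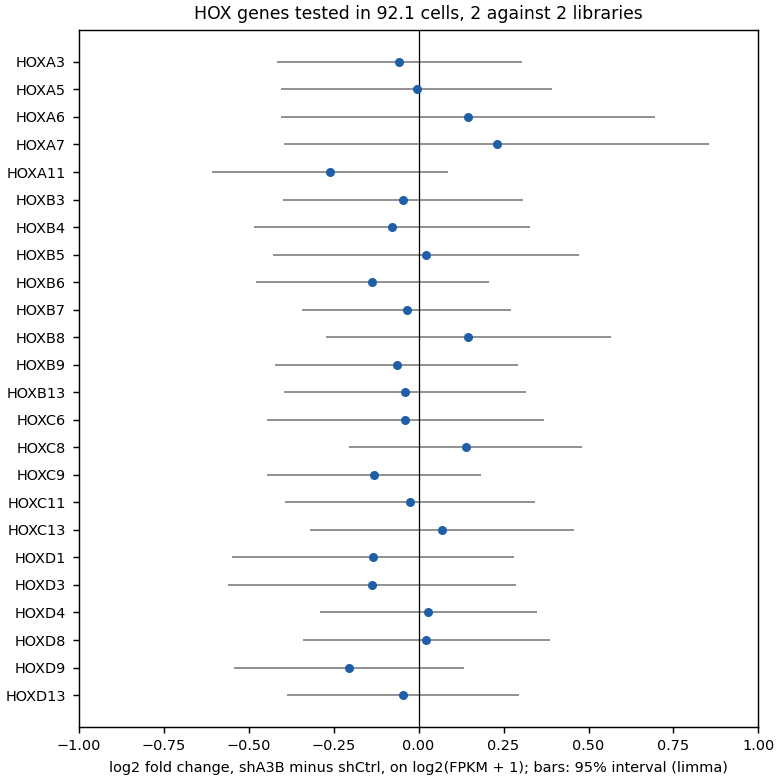
log2 fold change of 24 of the 25 HOX genes tested in 92.1, shA3B minus shCtrl on log2(FPKM + 1), with 95% intervals from limma (2 against 2 libraries). All points lie between -0.26 and 0.23 and all intervals include 0.

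Overexpression of A3B in MEL290 was not testable for the family, because 0 of the 39 members passed the filter there. In the same comparison 2065 of 11611 genes (17.8%) were called, 10.3% higher and 7.49% lower. The A3B OE libraries held HOX sums of 0.0641 and 0 FPKM and the NC libraries 0.0276 and 0.137. The test of a different effect in the 2 lines, with 25 members, called 0 of them, where 4.4% of 12697 genes were called, 3.06% with a higher and 1.35% with a lower effect in MEL290. At an unadjusted p under 0.05 there were 0 HOX genes and 2531 genes in all. With MEL290 near 0, this test repeats the 92.1 comparison with the sign turned and adds nothing about MEL290.

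Between the control libraries of both lines, 24 HOX genes were tested and 24 were lower in NC than in shCtrl, where 73% of 12352 genes were called, 39.3% lower and 33.7% higher. All 24 passed the filter through the shCtrl libraries alone, so they had to differ, and the count is no support in itself. Since the NC libraries were listed at 0 for 22 of them, no fold is given, and the levels of each line stand for the difference. The same 24 of 24 were lower when the A3B OE and shA3B libraries took the place of the controls. Cell line, control vector and processing cannot be told apart here. The tables of the lines differ in the name of their first column, and the sources used here do not say whether they were made in 1 run.

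The partners and regulators of HOX genes were present in both lines. None of them was called after A3B depletion in 92.1, with 0 of 8 TALE genes, 0 of 13 MLL/COMPASS genes, 0 of 7 genes around DOT1L, 0 of 11 Polycomb repressive complex 2 (PRC2) genes, 0 of 19 PRC1 genes, 0 of 9 retinoic acid genes and 0 of 2 other homeobox regulators. At an unadjusted p under 0.05 there was 1 retinoic acid gene, ALDH1A2 (-0.47, SE 0.20, adjusted p = 0.999), which encodes an enzyme that makes retinoic acid, and none in the other lists. Of all 11605 genes 1 was called and 336 had an unadjusted p under 0.05. List medians lay between -0.06 and 0.07, against 0.00 over all genes. Further leading differences of the lists were those of PHF19 (0.32), KDM6A (-0.32), MLLT3 (0.28), KDM2B (-0.27), PSIP1 (0.27), EED (0.27), MEIS3 (-0.20), MLLT10 (0.19), MEIS2 (0.11), PHC3 (-0.25), RARB (0.23), MNX1 (0.12) and GBX2 (-0.0053), each with an adjusted p of 0.999.

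The TALE genes, whose products bind DNA with HOX proteins, differed between the lines in both directions. PBX3 was at 2.71 and 1.35 FPKM in shCtrl and at 53.3 and 49.1 in NC, a log2 difference of 4.14 (SE 0.23, adjusted p = 4.5e-05). MEIS2 was at 5.07 and 4.91 in shCtrl and at 31.1 and 30.8 in NC, a difference of 2.42 (SE 0.11, adjusted p = 2.3e-05). PKNOX2 was at 3.24 and 5.59 in shCtrl and listed at 0 in NC. Some list members passed the filter through 1 line alone, such as PKNOX2 and PBX4 through shCtrl, so their calls are no support in themselves. Over the list, 4 of 9 TALE genes were called higher and 4 lower in NC, beside 33.7% and 39.3% of all genes, with a median log2 difference of 0.30 against -0.08 over all genes. MEL290 thus held PBX and MEIS transcripts in the near absence of HOX transcripts. With A3B OE, MEIS1 fell from 10.6 and 7.73 to 3.94 and 4.23 (log2 fold change -0.99, SE 0.17, adjusted p = 0.014). PBX3 rose by 0.39 (adjusted p = 0.049). PBX4, at 0.722 and 0.608 with NC and at 2.57 and 1.60 with A3B OE, passed the filter only through A3B OE (0.87, adjusted p = 0.031). With it 3 of 8 TALE genes were called, against 17.8% of all genes, and with no filter all 3 calls were lost (adjusted p = 0.075 for MEIS1, 0.092 for PBX4 and 0.13 for PBX3). The call of MEIS1 was lost without A3B OE replicate 1 or 2 (adjusted p = 0.079 and 0.070), and that of PBX3 without NC replicate 2 or A3B OE replicate 1 (0.11 and 0.14), without the trend (0.096) and with all 8 libraries in 1 fit (0.25).

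The MLL/COMPASS list holds methyltransferases of histone H3 lysine 4 and their shared subunits. KMT2A, which encodes MLL itself, was at 4.87 and 4.13 FPKM in shCtrl and at 13.8 and 13.3 in NC, a log2 difference of 1.40 (SE 0.13, adjusted p = 0.00031). The other called members were lower in NC, such as ASH2L by -1.27, SETD1B by -1.19 and SETD1A by -1.19 (adjusted p = 0.00063, 0.00042 and 0.0014), with 1 of 13 higher and 6 lower and a median of -0.33, where 33.7% of all genes were higher and 39.3% lower. A3B OE went with a rise of PSIP1, whose product tethers MLL to chromatin, by 0.58 (adjusted p = 0.025, 0.090 without A3B OE replicate 2 and 0.096 with no filter), 1 of 13 tested against 17.8% of all genes. Around DOT1L, the methyltransferase of histone H3 lysine 79, 4 of 7 genes were higher and 3 lower in NC, with a median of 0.38, against 73% of all genes called in either direction. AFF1 was higher by 1.99 and MLLT3 by 1.63 (adjusted p = 0.00012 and 0.00045), and DOT1L and MLLT1 differed by -1.47 and -1.17 (adjusted p = 0.00029 and 0.00028). None of the 7 was called with A3B OE, against 17.8% of all genes, with AFF4 at -0.38 and DOT1L at 0.27 (adjusted p = 0.056 and 0.20). An unadjusted p under 0.05 was held by 1 of 7, against 3848 of all 11611 genes.

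PRC2 deposits methyl groups on histone H3 lysine 27. Its subunits EED and SUZ12 were at like levels in both lines, EED at 8.61 to 12.2 FPKM in 92.1 and 6.85 to 9.39 in MEL290, and SUZ12 at 10.3 to 14.4 and 12.9 to 15.1. PHF19, a subunit that guides PRC2 to chromatin, was at 2.38 and 2.19 in shCtrl and at 18.1 and 17.5 in NC, a log2 difference of 2.52 (SE 0.13, adjusted p = 3.1e-05). EZH1 was higher in NC by 1.06 and AEBP2 by 0.83 (adjusted p = 0.00060 and 0.037), and PHF1 differed by -0.84 (adjusted p = 0.0021), with 3 of 11 higher and 3 lower and a median of -0.17, against the same 73%. With A3B OE, PHF19 rose to 32.3 and 30.9 (log2 fold change 0.79, SE 0.09, adjusted p = 0.0043). EZH2, the main methyltransferase of the complex, rose from 8.97 and 9.98 to 17.9 and 16.3 (0.79, SE 0.11, adjusted p = 0.0089), and RBBP7 rose by 0.50 (adjusted p = 0.0080). Thus 3 of 11 PRC2 genes were higher and 0 lower, where 10.3% of all genes were higher and 7.49% lower, with a median log2 fold change of 0.21 against 0.00 over all genes. The calls of PHF19 and RBBP7 held in every alternative without a minimum fold change, and that of EZH2 was lost without A3B OE replicate 1 (adjusted p = 0.055). EZH2 was also the PRC2 gene called in the test of the difference between both effects (0.82, adjusted p = 0.027), a call lost when any of the 8 libraries was left out (adjusted p between 0.064 and 0.11) and with the replicate block (0.076).

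PRC1, the complex that places ubiquitin on histone H2A, had 9 of 19 genes lower and 3 higher in NC and a median of -0.33, where 39.3% of all genes were lower and 33.7% higher. CBX2 was at 28.0 and 35.4 FPKM in shCtrl and at 1.31 and 1.43 in NC, a log2 difference of -3.78 (SE 0.16, adjusted p = 1.8e-05). KDM2B and RING1 differed by -1.85 and -1.70 (adjusted p = 0.00011 and 6.3e-05). With A3B OE, CBX6 fell by 0.70 (from 26.6 and 26.1 to 16.4 and 15.2, adjusted p = 0.0068), a call held in every alternative without a minimum fold change. PHC1 rose by 0.55 (adjusted p = 0.038), a call lost without NC replicate 2, A3B OE replicate 1 or A3B OE replicate 2 (adjusted p = 0.069, 0.075 and 0.16), with the replicate block (0.067) and with no filter (0.099). These were 2 of 19 PRC1 genes, against 17.8% of all genes.

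**Figure D4:**
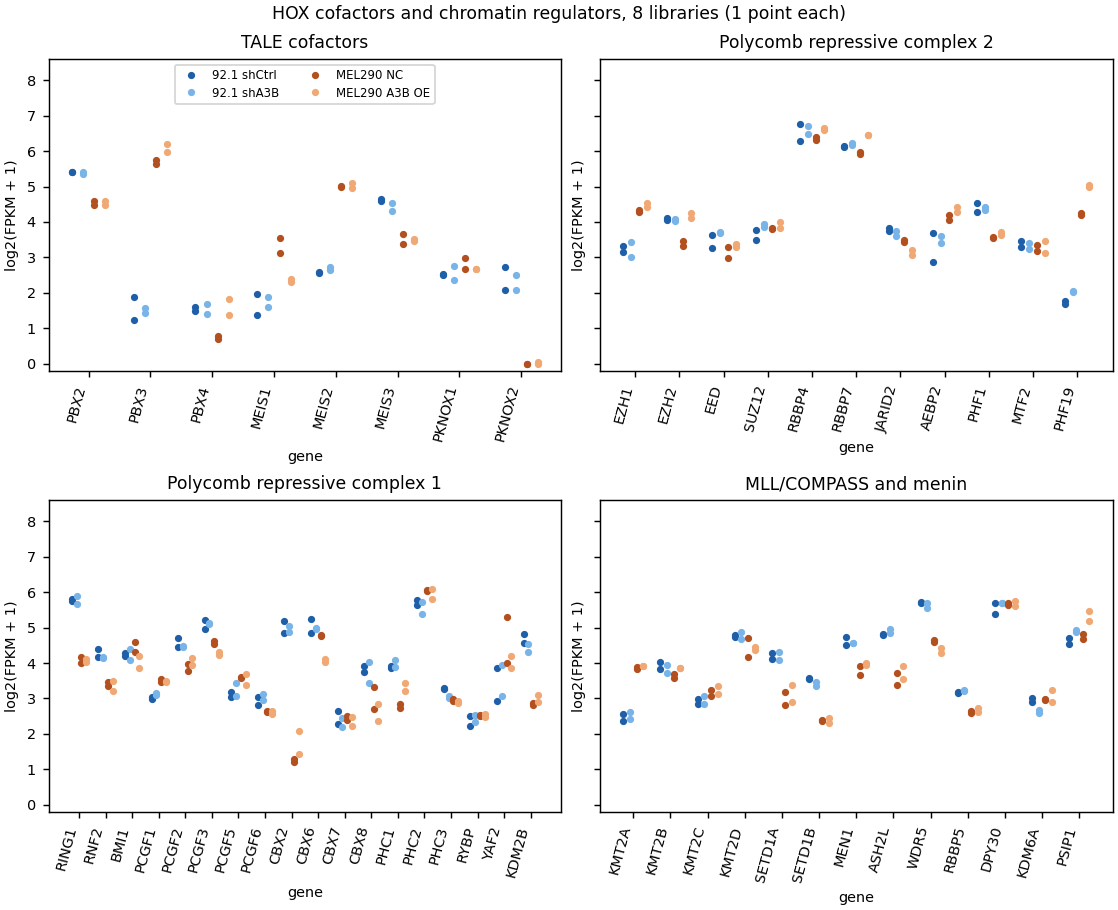
log2(FPKM + 1) of TALE cofactors, PRC2, PRC1 and MLL/COMPASS genes in the 8 libraries, with 1 point per library and colours for the 4 groups. PBX3, MEIS2 and PHF19 stand higher in MEL290, CBX2 stands higher in 92.1, and the 92.1 shA3B points lie with the shCtrl points.

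Genes of the retinoic acid pathway, which induces anterior HOX genes, were higher in NC for 5 of 11 tested and lower for 4, with a median of 0.14, where 33.7% of all genes were higher and 39.3% lower. ALDH1A3, an enzyme that makes retinoic acid, was at 0.468 and 0.685 FPKM in shCtrl and at 166 and 185 in NC, passing the filter only through NC. DHRS3, which reduces retinal, was listed at 0 in 92.1 and at 31.6 and 31.1 in NC, and also passed only through NC. ALDH1A2 passed only through shCtrl, at 2.84 and 2.17, and was listed at 0 in NC. RDH10, which makes retinal, was higher in NC by 2.31 (adjusted p = 8.7e-05), and the receptor gene RARB by 2.04 (adjusted p = 0.00035). With A3B OE, CRABP2, a carrier of retinoic acid, rose from 5.45 and 7.17 to 14.3 and 15.0 (log2 fold change 1.11, SE 0.15, adjusted p = 0.0066, and 0.051 without A3B OE replicate 2). DHRS3 rose to 49.4 and 47.6 (0.61, SE 0.08, adjusted p = 0.0062), a call held in every alternative without a minimum fold change. These were 2 of 12 tested, against 17.8% of all genes. The effect on CRABP2 differed between the lines (1.27, adjusted p = 0.035), a call lost when any 1 of 7 of the 8 libraries was left out (adjusted p between 0.064 and 0.13), with no filter (0.088) and with a pseudocount of 0.1 (0.082). Of the homeobox regulators of the clusters, CDX1, CDX2 and CDX4 were listed at 0 in all libraries, and MNX1 was at 1.89 and 3.15 in shCtrl and 0.673 and 0.0989 in NC. MNX1 passed the filter only through shCtrl (log2 difference -1.35, adjusted p = 0.0054). Of the genes around the clusters, HNRNPA1 and CBX5 rose with A3B OE, each by 0.39 (adjusted p = 0.0097 and 0.048), and CALCOCO1 fell by 0.36 (adjusted p = 0.030). These calls were lost without NC replicate 2 for HNRNPA1 (adjusted p = 0.052), without any 1 of the 4 libraries for CBX5 (0.057 to 0.16), and without NC replicate 2 or either A3B OE library for CALCOCO1 (0.077 to 0.14). The replicate block also ended those of CBX5 and CALCOCO1 (adjusted p = 0.069 and 0.056), as did no filter (0.11 and 0.069) and no trend (0.079 and 0.073), quantile normalization ended that of CBX5 (0.056) and 1 fit of all 8 libraries that of CALCOCO1 (0.15).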

How the data were processed

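RNA was extracted with Trizol and sequenced as paired ends on a HiSeq from NEBNext Ultra libraries. According to the study's methods and the labels, the authors aligned reads to GRCh38 with STAR and computed FPKM with Cufflinks over Ensembl release 75 genes, and the deposited files hold 1 FPKM value per symbol and library. FPKM is not a count, so no count test was run, and the Cuffdiff step of the methods was not used. Here log2(FPKM + 1) was fitted with limma 3.58.1 (R 4.3.3, eBayes with trend) over genes that reached 1 FPKM in 2 or more libraries of the fit, with Benjamini-Hochberg adjustment over all genes tested and a threshold of 0.05. Each line was fitted alone, the difference between effects over all 8 libraries, and NC against shCtrl over their 4. The test was checked on simulated data with 200 changed genes. It called 0% of changes of 0.5 on the log2 scale, within each line and between the lines. Of changes of 1 it called 87.7% in 92.1, 77.1% in MEL290 and 49.6% between the lines. The data gave far more calls than 200 in MEL290 (2065) and between the lines (9021), which loosens the adjusted threshold. Changes under 0.5 were called there, such as HNRNPA1 at 0.39 in MEL290 and -0.27 between the lines. The simulated shares therefore do not describe these comparisons. All 39 members matched GENCODE release 44, as did 19033 of the 19952 symbols.

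The members, the marker and regulator lists and the tests were chosen with earlier results of these data known. The lists of genes used by every cell and of other homeobox genes were added after the values were seen. HOX genes were named, members at 1 FPKM in both libraries of a group with all values. From each regulator list up to 4 called genes per comparison with the largest absolute log2 difference were named, or, with none called, the leading 2 as values, as well as A3B and all tested flanking genes. Alternatives covered the trend, scaling, filters, pseudocount, a replicate block, a minimum fold change and each library left out. Of the 19 noncoding RNAs of the clusters looked for, 0 were found under their symbols. Values of single genes that the naming rule would add are in a few cases not reported here.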

Additional observations from a re-analysis of the deposited data

How the results depend on the processing

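The count of called HOX genes stayed at 0 in 92.1, in MEL290 and for the difference between both effects in every alternative that tested members, and at 24 lower genes between the control libraries, or 25 with all 8 libraries in 1 fit and 30 with no filter. In MEL290 members were tested only with no filter or all 8 libraries in 1 fit. With 1 FPKM required in every library no member was left for the difference or between the lines, nor between the lines without either shCtrl library. Over the 25 tested HOX genes, 195 of the values under settings other than leaving out a library kept their side, and 4 turned sign: 0.0194 for HOXA5 and 0.00056 for HOXC11 with upper quartile scaling, and -0.0190 for HOXB5 and -0.0043 for HOXD8 with quantile normalization. Leaving out 1 of the 4 libraries in turn, 16 genes had values of both signs: HOXA3 -0.19 to 0.0739, HOXA5 -0.0748 to 0.0634, HOXA6 -0.16 to 0.46, HOXA7 -0.11 to 0.54, HOXB13 -0.15 to 0.0746, HOXB3 -0.15 to 0.0609, HOXB5 -0.12 to 0.17, HOXB7 -0.10 to 0.0319, HOXB8 -0.0869 to 0.38, HOXB9 -0.22 to 0.0946, HOXC13 -0.0707 to 0.21, HOXC6 -0.21 to 0.13, HOXD1 -0.38 to 0.12, HOXD13 -0.18 to 0.089, HOXD4 -0.0805 to 0.14 and HOXD8 -0.0577 to 0.10. The smallest adjusted p of a HOX gene in 92.1 under any setting was 0.659. With no filter HOXC10 had an unadjusted p under 0.05 (log2 fold change 0.13, adjusted p = 0.99).

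Calls over all genes moved more. In 92.1 there was 1 call, against 0 with no filter, 2 without the trend and 2 to 9 with 1 library left out, the most without either shA3B library. In MEL290 there were 2065, against 915 with no filter, 314 at a minimum log2 fold change of 1 and 809 to 1979 with 1 library left out, the fewest without A3B OE replicate 2 and next 888 without A3B OE replicate 1. The difference between both effects gave 559 calls, against 328 with 1 FPKM in every library, 36 (without A3B OE replicate 1) to 286 calls with 1 library left out and 287 at that minimum. The labels give both groups of a line replicate numbers 1 and 2, without saying what they share. The correlation between deviations of libraries with 1 number was 0.193 for 92.1 and -0.0295 for MEL290, and among 26 HOX genes with a library at 1 FPKM, 16 moved the same way from replicate 1 to 2 in both 92.1 groups. The share over all genes was not computed, so this count is not read as a trait of HOX genes. A replicate block gave 37 calls over all genes in 92.1 (1 without it), 1521 in MEL290 (2065) and 223 for the difference (559), and HOX counts of 0 in 92.1, 0 for the difference and 24 between the lines. Among named regulators and flanking genes, HNRNPA1 turned from -0.27 to 0.0501 between the lines when A3B OE and shA3B replaced the controls. The cause was not tested. Of 14 regulators and flanking genes called with A3B OE, 14 kept their sign and 4 their call in all alternatives without a minimum fold change, as did 2 and 0 of 2 for the difference and 60 and 45 of 63 between the lines, where calls over all genes went from 9021 to 4959 at that minimum. Counts were not used here, so what depth a value of 0 stands for is unknown.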

Other observations

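Outside the clusters, 61 other homeobox genes were looked up, a list added after the values were seen. In 92.1, 30 of them were at 1 FPKM or more in all 4 libraries and 9 were listed at 0, while in MEL290 these were 12 and 29. Genes of the first kind included EN2 at 14.4 to 19.2 FPKM, ALX1 at 9.25 to 11.2, LHX6 at 6.97 to 11.1 and DLX4 at 5.56 to 8.37 in 92.1, all 4 listed at 0 in MEL290. PITX1 was at 16.6 to 19.6 in 92.1 and at most 0.132 in MEL290. Some went the other way. OTX2, a gene of the forebrain and retinal pigment epithelium, was at 25.8 to 28.2 FPKM in MEL290 and listed at 0 in 92.1, and SIX3, of the anterior forebrain and eye, was at 13.3 to 16.1 against at most 0.175. CUX1 was at 59.8 to 63.8 in MEL290 and 13.2 to 16.0 in 92.1. Summed levels over this list were 203 to 206 FPKM in MEL290 and 212 to 240 in 92.1. Of 35 list members tested between the control libraries, 7 were higher in NC and 24 lower, where 73% of all genes were called, 33.7% higher and 39.3% lower. Members on in 1 line only, such as LHX6 and DLX4 in 92.1 and OTX2 in MEL290, passed the filter through that line alone. They had to differ, so the counts are no support in themselves. None of 32 list members was called after A3B depletion in 92.1, with 0 at an unadjusted p under 0.05, against 1 and 336 of all 11605 genes. With A3B OE 1 of 15 was called, higher, against 17.8% of all genes called and 10.3% called higher.

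Within 92.1, some HOX genes differed between the numbered replicates in the same direction in both groups. HOXD1 was higher in replicate 2 by 0.50 (shCtrl) and 0.39 (shA3B) on log2(FPKM + 1), and HOXA6 by 0.62 and 0.54, whereas HOXA7 was lower by -0.67 and -0.63. These were among the 16 of 26 HOX genes that moved the same way. Others moved in opposite directions in the 2 groups, such as HOXB8 (-0.47 and 0.18) and HOXC6 (0.34 and -0.21). The fitted effects of A3B depletion on HOX genes lay between -0.26 and 0.23. With 1 library per number and group they were not tested.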
